A study of Mus musculus with 4 samples.

Results

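Glycosyltransferases of sialylation, fucosylation, chain elongation and branching were followed in neural stem cells that carried a scrambled shRNA or an shRNA targeting the forkhead factor Foxp1. The genes were taken by symbol from 11 families (Galnt, Gxylt, Mgat, Fut, B4galt, B3galt, B3gnt, St3gal, St6gal, St6galnac and St8sia), which gave 73 of the 26815 entries of the deposited table. Of the 73, 52 were tested by the authors and 21 were not. The 4 libraries held poly(A) RNA of purchased mouse cortical stem cells, strain CD-1 at stage E14.5, cultured on laminin with EGF and bFGF. In 2 libraries the cells carried a lentivirus with a scrambled shRNA (SHC002) and in the other 2 a lentivirus with an shRNA targeting Foxp1 (pLKO.1_sh_ex15). All were expanded under puromycin at 0.5 µg/mL, and the libraries of a group came from different passages. Each group rests on 1 shRNA.

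The deposited values are 1 comparison per gene between pooled conditions coded q2 and q1, and neither the labels nor the headers tie a code to an shRNA. Directions are therefore stated as q2 relative to q1, with no value per library and no spread between replicates, and the read depth is unknown. Foxp1, the targeted gene, had a log2 fold change of -2.03 per the authors' deposited table (Cuffdiff q = 0.00162). An entry was called when its Cuffdiff q was under 0.05, which held for 7.63% of all 15315 tested entries, 4.24% higher and 3.39% lower in q2. Among markers of cell types, 8 of 9 neural stem cell genes were tested, with Nes called higher and Fabp7 and Hes5 lower. Of 5 astrocyte markers 4 were called lower (Aldh1l1, Aqp4, Gfap and Gja1), and among oligodendrocyte lineage markers Mbp was called higher and Pdgfra lower. Of 3 tested neuron markers Cuffdiff called 0, and 1 had an unadjusted p under 0.05. The part of other cell types in the results below was not tested, and in these bulk samples fewer cells of a type and less RNA per cell cannot be told apart. Most markers of microglia, vessels and fibroblasts were not tested by the authors, with 2 of 6, 2 of 6 and 1 of 5 tested and 0 of the 5 tested called by Cuffdiff, 0 of them also at an unadjusted p under 0.05.

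Glycans on cell surface proteins and lipids are built by glycosyltransferases of the endoplasmic reticulum and Golgi, each of which adds a given sugar in a given linkage. Galnt enzymes start mucin-type O-glycans on serine or threonine, Mgat enzymes set the branches of N-glycans, and B4galt, B3galt and B3gnt enzymes lengthen chains with galactose and N-acetylglucosamine. Fucosyltransferases and sialyltransferases then add the fucose and sialic acid that cap or decorate these chains. In the developing brain such caps include Lewis X, a fucosylated epitope carried by neural stem cells, polysialic acid on the adhesion molecule NCAM, and the sialylated glycolipids called gangliosides.

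Of the 52 tested genes, 8 were called higher in q2, 3 were called lower and 41 were not called. Called higher were the xylosyltransferase Gxylt2, the branching enzyme Mgat4b, the elongating enzymes B4galt1, B4galt6, B3galt5 and B3gnt2, and the sialyltransferases St3gal4 and St6galnac5. Called lower were the sialyltransferase St6gal2, the mucin-type initiator Galnt13 and the core fucosyltransferase Fut8. The share called was 21.2%, beside 7.63% over all tested entries and 8.96% over tested entries with a single gene symbol. In direction, 15.4% were called higher and 5.77% lower, beside 4.24% and 3.39%. The median log2 fold change was 0.10 over the 52 genes and -0.05 over all tested entries, and the median absolute log2 fold change was 0.37 against 0.32. Most of the family thus lay close to 0, with 61.5% of the genes under an absolute log2 fold change of 0.5, against 68.2% of all tested entries.

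Log2 fold changes spanned a range from St6gal2 at -3.22 to Gxylt2 at 3.48 per the authors' deposited table. Read as a fold change over its error, each deposited test statistic gives, by division, the error that the statistic implies on the log2 scale. This implied error ran from 0.31 to 1.68 over the 52 genes, with a median of 0.36. The Cuffdiff p-values go no lower than 5e-05, which for the largest statistics (St6gal2 and Gxylt2) is above the p of a normal distribution. For smaller statistics they are mostly smaller than a normal distribution of the same statistic would give. Read that way and adjusted again, 5 of the 11 calls remained (St6gal2, Gxylt2, St6galnac5, B3galt5 and Galnt13).

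**Figure D1:**
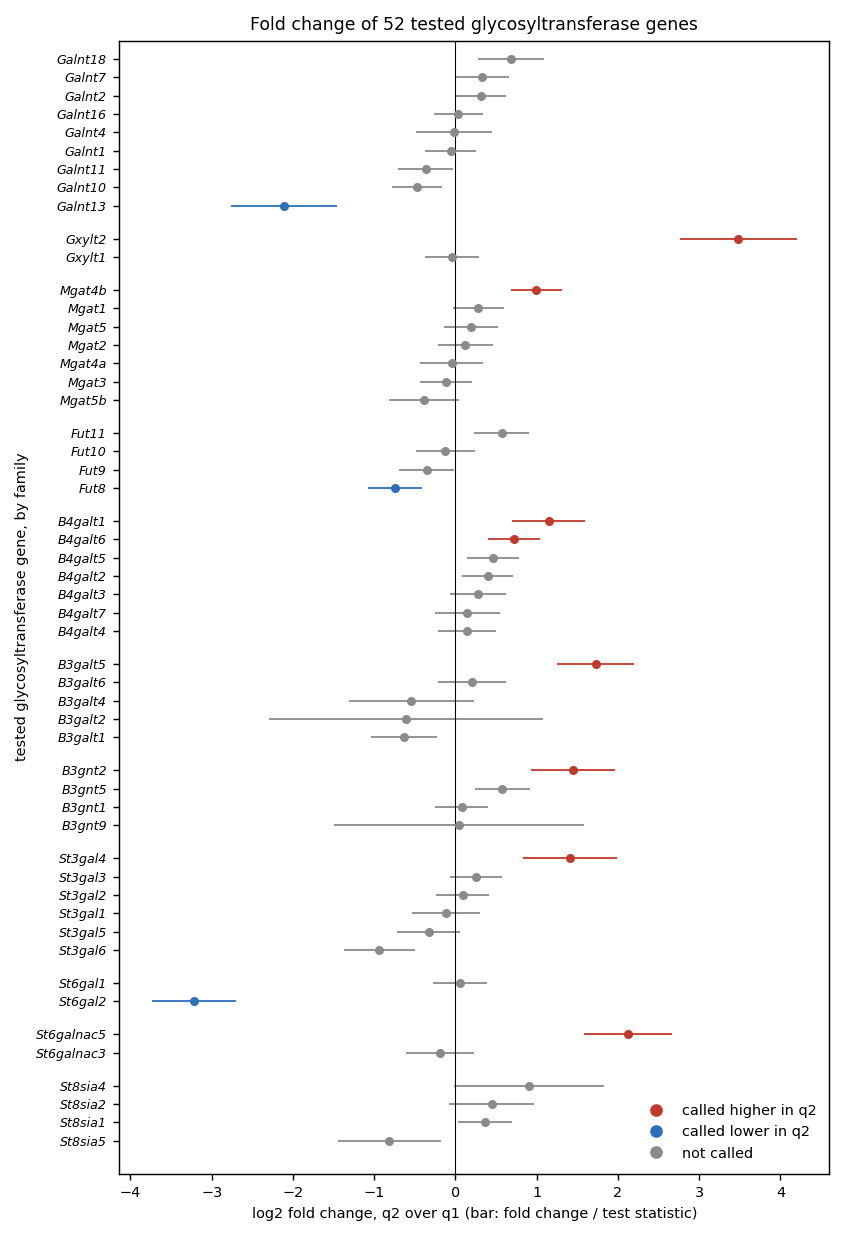
The x axis is the log2 ratio of q2 to q1, from the authors' deposited table, and the y axis lists the 52 tested glycosyltransferase genes by family. Red marks genes called higher in q2, blue those called lower, grey the uncalled; bars are the implied error on either side, and Gxylt2 at 3.48 and St6gal2 at -3.22 lie at the ends.

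The genes at the ends of this range each have a close paralogue that was not called, and their upstream sequences are shown because they set a called gene beside its uncalled partner. The 250 bases before the annotated start are from RefSeq on GRCm38.p6, in the direction of transcription. They lie at chr6:100704484-100704733 on the plus strand for Gxylt2, chr15:93275180-93275429 on the minus strand for Gxylt1, chr17:55445132-55445381 on the plus strand for St6gal2 and chr16:23224490-23224739 on the plus strand for St6gal1. Capitals mark the GC box GGGCGG and the CCAAT box, on either strand.
Gxylt2: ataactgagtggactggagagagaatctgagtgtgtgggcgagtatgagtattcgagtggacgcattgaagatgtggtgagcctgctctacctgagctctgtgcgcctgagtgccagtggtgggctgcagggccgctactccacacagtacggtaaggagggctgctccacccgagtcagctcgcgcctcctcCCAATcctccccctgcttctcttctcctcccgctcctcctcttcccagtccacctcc
Gxylt1: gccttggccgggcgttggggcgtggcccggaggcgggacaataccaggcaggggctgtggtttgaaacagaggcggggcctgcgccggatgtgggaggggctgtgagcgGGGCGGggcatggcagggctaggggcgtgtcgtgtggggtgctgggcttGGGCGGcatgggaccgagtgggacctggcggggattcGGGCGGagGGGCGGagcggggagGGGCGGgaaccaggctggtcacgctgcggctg
St6gal2: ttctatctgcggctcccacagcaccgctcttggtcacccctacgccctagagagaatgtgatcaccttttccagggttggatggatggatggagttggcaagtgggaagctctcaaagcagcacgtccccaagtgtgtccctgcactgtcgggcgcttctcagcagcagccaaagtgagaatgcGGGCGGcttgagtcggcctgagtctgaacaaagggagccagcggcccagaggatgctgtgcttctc
St6gal1: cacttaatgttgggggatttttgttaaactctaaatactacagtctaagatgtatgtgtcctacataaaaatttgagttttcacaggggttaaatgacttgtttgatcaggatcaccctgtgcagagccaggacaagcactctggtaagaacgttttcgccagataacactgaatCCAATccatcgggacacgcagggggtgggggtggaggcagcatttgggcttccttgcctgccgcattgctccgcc
The annotated start lay 335 bases from the deposited locus of St6gal2 and 95 bases from that of Gxylt1, and at the locus start of the other 2. The sequence before Gxylt2 held 59.6% G and C with 10 CpG, and that before Gxylt1 74.0% with 22 CpG. St6gal2 had 58.4% with 10 CpG and St6gal1 47.2% with 6 CpG. GC boxes stood before Gxylt1 and St6gal2, and a CCAAT box before Gxylt2 and St6gal1. Forkhead motifs were searched on both strands in windows from 250 bases before to 50 after the start, namely TGTTTAC (in 3.65% of all 32851 windows and 2.39% of the 9088 windows of tested genes), then TGTTTGC (5.07% and 3.2%), then TATTTAC (3.04% and 1.29%) and last TGTTTAT (4.6% and 2.11%). Of the 53 glycosyltransferase windows, 2 held TGTTTGC (B3galt2 and B3gnt5) and 2 held TATTTAC (Mgat5 and Mgat4c), none of them of a called gene. None of the motifs was in the windows of the 8 called genes that have one, and the absence of these letters from a window says nothing of factor binding. GGGCGG was in 39 of 53 glycosyltransferase windows (73.6%), in 67.7% of the windows of tested genes, and in 35.7% of all windows.

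The highest fold change was that of Gxylt2, which adds xylose to O-linked glucose on the EGF repeats of proteins such as Notch. Gxylt2 (chromosome 6, 100704734 to 100805081) was 11.2-fold higher in q2 per the authors' deposited table (implied error 0.72 on the log2 scale, Cuffdiff q = 0.00162). Its paralogue Gxylt1, of the same activity, stood at -0.04 with an implied error of 0.33 per the authors' deposited table (Cuffdiff q = 0.954), a sign that flips once the median of all entries is subtracted or the GC trend removed. The difference between the paralogues was not tested. Of the other enzymes that build O-glycans on EGF repeats, 0 of 8 tested were called by Cuffdiff, and 1 had an unadjusted p under 0.05. That one, the fringe enzyme Mfng, was at 0.66 per the authors' deposited table (Cuffdiff q = 0.237). The xylosyltransferase Xxylt1, which extends the xylose that Gxylt enzymes add, was at 0.61 with an implied error of 0.67 per the authors' deposited table.

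Gxylt2 lies on the chromosome that also carries Foxp1, 1.27 Mb from the end of the Foxp1 locus. Of 8 tested entries within 2 Mb of Gxylt2, itself included, 3 were called by Cuffdiff, beside 7.63% of all tested entries. The window was chosen after the values were seen. The 3 were Foxp1, Gxylt2 and the neural adhesion gene Cntn3, at 1.69 per the authors' deposited table. Gxylt2 was picked for its high fold change and Foxp1 is the targeted gene, so the count says nothing of the region. Of the 3 tested entries between Foxp1 and Gxylt2, 0 were called by Cuffdiff and 0 had an unadjusted p under 0.05, with Shq1 at 0.42 and Rybp at -0.10 per the authors' deposited table. Ppp4r2, the next gene on the far side, was at -0.22 and Pdzrn3 at 0.80 per the authors' deposited table (Cuffdiff q = 0.640 and 0.10).

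**Figure D2:**
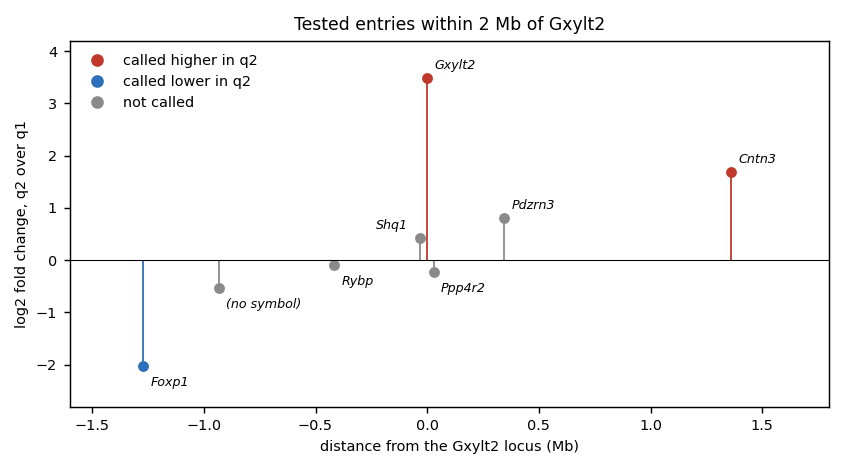
The y axis is the log2 ratio of q2 to q1, from the authors' deposited table, for the 8 tested entries within 2 Mb of Gxylt2, and the x axis their distance from its locus in Mb. Red marks entries called higher in q2, blue those called lower, grey the uncalled; Gxylt2 stands at 3.48, with its nearest tested neighbours Shq1 and Ppp4r2 at 0.42 and -0.22.

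Among the polypeptide GalNAc-transferases taken by the symbol Galnt, which start mucin-type O-glycans, 9 of 16 were tested and 1 was called. Galnt13 (chromosome 2, 54436387 to 55117744), a form enriched in neural tissue, was 4.32-fold lower in q2 per the authors' deposited table (implied error 0.65 on the log2 scale, Cuffdiff q = 0.00527). The other 8 ran from -0.48 for Galnt10 to 0.69 for Galnt18 per the authors' deposited table. Both ends had an unadjusted p under 0.05 but were not called (Cuffdiff q = 0.188 and 0.138). Galnt10 passed once a trend of fold change with transcript GC content was removed, at -0.68. The widely expressed Galnt1 and Galnt2 stood at -0.06 and 0.31 per the authors' deposited table. Downstream, the core enzyme C1galt1 and its chaperone C1galt1c1 were at -0.14 and 0.0048 per the authors' deposited table. In the list of mucin-type core and I-branch genes, Cuffdiff called 0 of 5 tested, and 1 had an unadjusted p under 0.05. That one, Wbscr17, is itself of the GalNAc-transferase family, though the choice by symbol leaves it out. It was at 0.62 per the authors' deposited table (Cuffdiff q = 0.192).

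N-glycan branching enzymes gave 1 call among 7 tested Mgat genes. Mgat4b (chromosome 11, 50225335 to 50235103), which adds a beta-1,4 branch of N-acetylglucosamine, was 1.99-fold higher in q2 per the authors' deposited table (implied error 0.31 on the log2 scale, Cuffdiff q = 0.00162). With the GC trend removed it went to 0.66 and lost the call (q = 0.0585 from the corrected statistic). Its paralogue Mgat4a, whose sign flips with the GC trend removed (0.22), was at -0.05 per the authors' deposited table (Cuffdiff q = 0.952). The enzymes that act before it, Mgat1 and Mgat2, were at 0.28 and 0.12 per the authors' deposited table, and Mgat3, which adds the bisecting residue, was at -0.12. Mgat5, which adds the beta-1,6 branch, stood at 0.19 and its brain form Mgat5b at -0.39 per the authors' deposited table, and Cuffdiff called neither. Mgat4c was not tested.

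Of 30 tested genes of N-glycan assembly, trimming and sugar transport, 2 were called higher and 1 lower, with a median of -0.08. That share of 10% stands beside 7.63% of all tested entries and 8.96% of those with a single gene symbol. Man1c1, a Golgi mannosidase that trims mannose before Mgat1 acts, was 2.96-fold higher in q2 per the authors' deposited table (Cuffdiff q = 0.00162). The glucosidase gene Mogs was at 0.91 and the endomannosidase gene Manea at -0.77 per the authors' deposited table. Both lost the call with the GC trend removed, at 0.68 and -0.56, while Man1c1 kept it at 1.33.

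Fucosyltransferases had 4 of 8 genes tested and 1 called. Fut8, which adds the core fucose of N-glycans (chromosome 12, 77238104 to 77475996), was 1.67-fold lower in q2 per the authors' deposited table (implied error 0.33 on the log2 scale, Cuffdiff q = 0.0250). With the GC trend removed Fut8 went to -0.47 and lost the call (q = 0.252 from the corrected statistic). Fut9, the main maker of Lewis X in the brain, was at -0.35 with an implied error of 0.34 per the authors' deposited table (Cuffdiff q = 0.436). Fut10 and Fut11 were at -0.12 and 0.57 per the authors' deposited table, the latter with an unadjusted p of 0.0171 and a Cuffdiff q of 0.138. Fut1, Fut2, Fut4 and Fut7 were not tested. Of 8 genes of fucose supply, transport and removal Cuffdiff called 0, and 1 had an unadjusted p under 0.05, Slc35c2 at 0.54 per the authors' deposited table.

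Chain elongation, with 7 B4galt, 5 B3galt and 4 B3gnt genes among the 52 tested, held 4 of the 8 calls higher in q2. All 7 B4galt genes were tested and all 7 had a positive fold change, which for B4galt7 did not hold once the GC trend was removed, at -0.11. A positive fold change was listed for 31 of the 52 genes and for 6945 of 15197 tested entries with a finite value. B4galt1 (chromosome 4, 40804582 to 40854537), the galactosyltransferase that acts on most N-glycan antennae, was 2.21-fold higher in q2 per the authors' deposited table (implied error 0.45 on the log2 scale, Cuffdiff q = 0.0118). B4galt6, a lactosylceramide synthase, was 1.65-fold higher per the authors' deposited table (Cuffdiff q = 0.0361), the call nearest to the threshold. B4galt5, the other lactosylceramide synthase, was at 0.46 per the authors' deposited table, with an unadjusted p of 0.0448 and a Cuffdiff q of 0.244. The remaining 4 lay between 0.14 for B4galt4 and 0.40 for B4galt2 per the authors' deposited table.

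B3galt5 (chromosome 16, 96235801 to 96319858), which makes type 1 chains, was 3.31-fold higher in q2 per the authors' deposited table (implied error 0.47 on the log2 scale, Cuffdiff q = 0.00162). The other 4 B3galt genes were not called. B3galt1, at -0.64 per the authors' deposited table, had an unadjusted p of 0.0256 and a Cuffdiff q of 0.176. B3galt2 was at -0.61 per the authors' deposited table with an implied error of 1.68, the widest of the 52, and shares its locus with Cdc73. The ganglioside enzyme B3galt4 was at -0.54 and B3galt6, of the glycosaminoglycan linker, at 0.21 per the authors' deposited table.

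B3gnt2 (chromosome 11, 22834739 to 22860336), a main enzyme of poly-N-acetyllactosamine, was 2.72-fold higher in q2 per the authors' deposited table (implied error 0.51 on the log2 scale, Cuffdiff q = 0.00918). B3gnt5, which starts lacto-series glycolipids, was at 0.58 per the authors' deposited table (Cuffdiff q = 0.139) and passed with the GC trend removed, at 0.85. The entry listed as B3gnt1 starts where RefSeq places B4gat1 on chromosome 19 (5038826), a glucuronyltransferase of dystroglycan. It was at 0.08 per the authors' deposited table. B3gnt9 was at 0.05 with an implied error of 1.54 per the authors' deposited table, and the other 5 B3gnt genes were not tested. B4galt1 and B3gnt2, whose products alternate in the poly-N-acetyllactosamine chain, were both called higher. Galectins, which bind such chains, had 4 genes tested and 1 called, Lgals1 at 1.06 per the authors' deposited table. Lgals8, at -0.44 per the authors' deposited table, was not called (Cuffdiff q = 0.377).

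**Figure D3:**
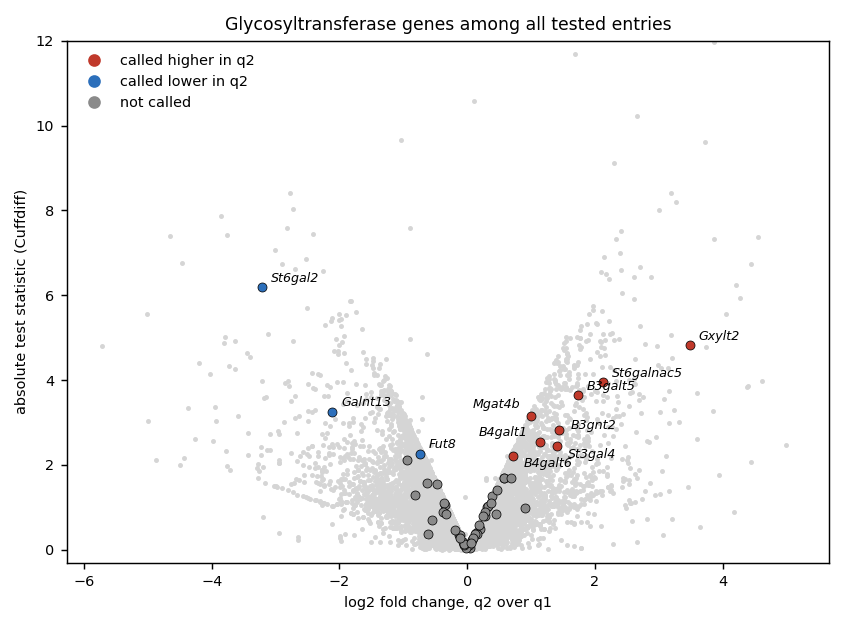
The absolute Cuffdiff test statistic (y axis) is drawn against the log2 ratio of q2 to q1 (x axis), both from the authors' deposited table. Pale points are tested entries (16 with an absolute statistic over 12 are not drawn) and the larger points the 52 glycosyltransferase genes, with red for calls higher in q2, blue for lower and grey for the uncalled; St6gal2, with a statistic of -6.18, lies highest of the 52.

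Sialyltransferases gave calls in both directions. St6gal2 (chromosome 17, 55445717 to 55499226), a brain-enriched enzyme that adds alpha-2,6-linked sialic acid to galactose, was 9.30-fold lower in q2 per the authors' deposited table (implied error 0.52 on the log2 scale, Cuffdiff q = 0.00162). St6gal1, the widely expressed enzyme of the same linkage, was at 0.06 with an implied error of 0.34 per the authors' deposited table (Cuffdiff q = 0.936). The difference between St6gal2 and St6gal1 was not tested.

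For alpha-2,3 linkages, all 6 St3gal genes were tested and 1 was called. St3gal4 (chromosome 9, 35046579 to 35175987), which caps N-acetyllactosamine, was 2.66-fold higher in q2 per the authors' deposited table (implied error 0.57 on the log2 scale, Cuffdiff q = 0.0207). Its locus is shared with Dcps, at 0.25 and not called by Cuffdiff per the authors' deposited table. St3gal6, which acts on similar chains, was 1.91-fold lower per the authors' deposited table and lay just outside the threshold (Cuffdiff q = 0.0503). Its call changed with the set of entries over which p was adjusted, as it passed among entries with a single symbol and among those with a locus of their own. St3gal6 also passed with the length trend removed, at -0.89. With the GC trend removed it went to -0.78 and did not pass (q = 0.120 from the corrected statistic). St3gal1, St3gal2 and St3gal3 stood at -0.12, 0.09 and 0.25 per the authors' deposited table, none of them called by Cuffdiff.

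St6galnac5 (chromosome 3, 152817766 to 152982207), which makes the ganglioside GD1alpha, was 4.35-fold higher in q2 per the authors' deposited table (implied error 0.54 on the log2 scale, Cuffdiff q = 0.00162). Its neighbour St6galnac3, 220 kb away, was at -0.19 per the authors' deposited table (Cuffdiff q = 0.798). St6galnac1 and St6galnac2 were not tested. Of the polysialic acid enzymes, St8sia2 was at 0.45 and St8sia4 at 0.90 per the authors' deposited table, with implied errors of 0.52 and 0.92. Neither was called by Cuffdiff (q = 0.543 and 0.493), so a difference of the size listed for St8sia4 was not detectable with that error. NCAM itself, Ncam1, was at 0.04 and the other polysialylated receptor Nrp2 at 0.69 per the authors' deposited table, the latter called by Cuffdiff (q = 0.0361). St8sia3 and St8sia6 were not tested, and Cuffdiff called 0 of the 4 tested St8sia genes, 0 of them also at an unadjusted p under 0.05.

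In the order of ganglioside synthesis, the fold changes did not share a sign. The glucosylceramide synthase gene Ugcg was at 0.30 per the authors' deposited table, followed by B4galt5 and called B4galt6 at 0.46 and 0.72. St3gal5, which makes GM3, was at -0.33, and St8sia1, which makes GD3, a ganglioside of neural stem cells, was at 0.37 per the authors' deposited table, and Cuffdiff called neither. The complex ganglioside enzymes B4galnt1, B3galt4 and St8sia5 were at -0.35, -0.54 and -0.82 per the authors' deposited table, and none of them was called by Cuffdiff. St6galnac5, at the end of the series, was called at 2.12 per the authors' deposited table. On the side of breakdown, Gm2a, the activator of GM2 hydrolysis, was 3.33-fold lower in q2 per the authors' deposited table (Cuffdiff q = 0.00162). The sialidase gene Neu4 was 4.71-fold lower per the authors' deposited table (Cuffdiff q = 0.00162), while Neu1 and Neu3 were at 0.23 and 0.07. Both Gm2a and Neu4 kept their calls with the GC trend removed, at -1.65 and -2.27.

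Among genes of sialic acid supply, transport and removal, 2 of 12 tested were called, both lower: the sialidase gene Neu4 and Cmah. Cmah, which turns N-acetyl- into N-glycolylneuraminic acid, was at -0.96 per the authors' deposited table (Cuffdiff q = 0.0298) and lost the call with the GC trend removed, at -0.81. Gne, the first enzyme of sialic acid synthesis, was at 0.49, and Cmas and the transporter Slc35a1 at -0.31 and -0.45 per the authors' deposited table, none of them called by Cuffdiff. The 10 related lists together had 101 tested genes, 5 called higher and 6 lower, with a median of 0.00. The share called was 10.9%, beside 7.63% of all tested entries and 8.96% of those with a single gene symbol. Among carriers of polysialic acid or Lewis X, 3 of 9 tested were called, with Tnc at 2.34 and Ptprz1 at -0.80 per the authors' deposited table beside Nrp2. Ptprz1 lost its call with the GC trend removed, at -0.46. In a list of glycosaminoglycan linker enzymes that also holds the paralogues B3gat1 and B3gat2, Cuffdiff called 0 of 7 tested. These paralogues, at -0.58 and -1.26 per the authors' deposited table, were the 2 with an unadjusted p under 0.05. B3gat3, the glucuronyltransferase of the linker itself, was at 0.22 per the authors' deposited table (Cuffdiff q = 0.675). B3gat1 passed with the GC trend removed, at -0.75.

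**Figure D4:**
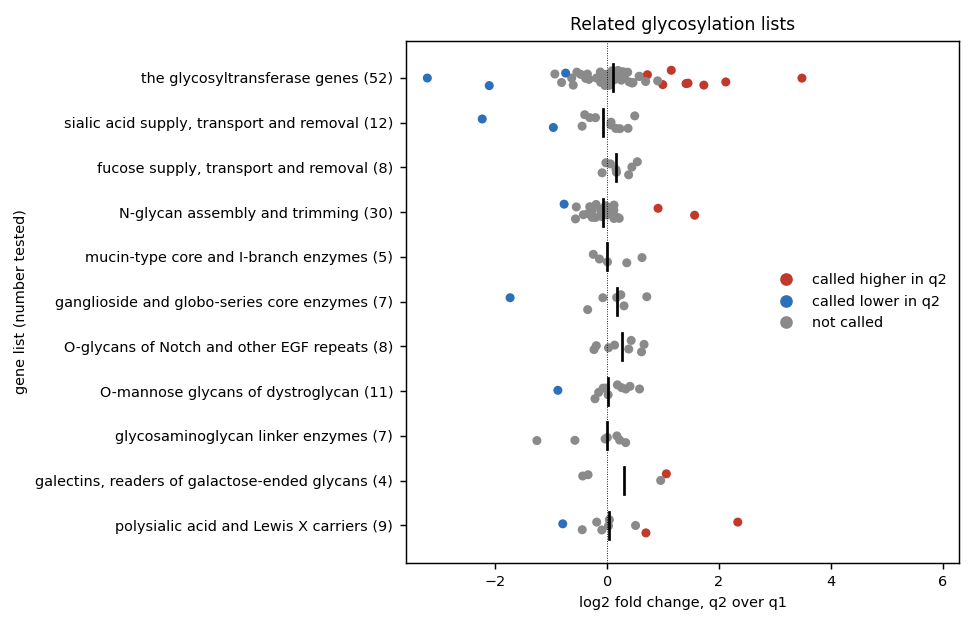
The x axis is the log2 ratio of q2 to q1, from the authors' deposited table, and the y axis holds the glycosyltransferase genes and 10 related lists, with the number tested. Each point is a gene, with red for calls higher in q2, blue for lower and grey for the uncalled, and black bars are medians, 0.10 for the 52 glycosyltransferase genes.

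Fold changes in the whole table increased with transcript GC content, from a median of -0.38 in the first of 50 bins to a largest bin median of 0.34. The tested glycosyltransferase transcripts had a median GC content of 50.9%, close to the 50.6% of all genes with a value. With the trend removed, 11 of the 52 genes were again called, and 9 of them were among the deposited calls. Against the deposited calls, Fut8 and Mgat4b lost the call, and B3gnt5 and Galnt10 gained it. Over the same genes and reading of p but with no trend removed, 12 were called, the 11 deposited calls and St3gal6. Of all 11563 genes with a GC value, 853 were called with the trend removed, against 1167 with no trend removed. St3gal6 did not pass with the GC trend removed. Gxylt2, St6galnac5 and St6gal2 were at 3.54, 2.22 and -3.16 after removal, and Galnt13, whose transcripts hold 37.9% G and C, went to -1.73.

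**Figure D5:**
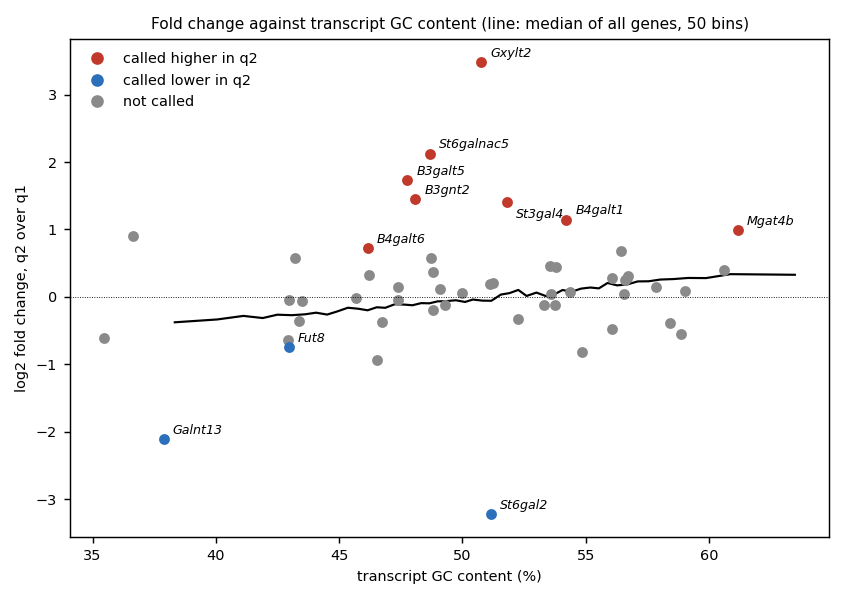
The log2 ratio of q2 to q1, from the authors' deposited table (y axis), is drawn against transcript GC content in percent (x axis) for the 52 tested glycosyltransferase genes. Red marks calls higher in q2, blue lower and grey the uncalled; the black line joins the medians of all genes in 50 bins of GC content, which rise from -0.38, and Gxylt2, at 50.8% GC, lies far above it.

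The 21 untested genes give no comparison. Of these, 7 have a log2 fold change listed as exactly 0, 3 have an infinite one because a condition is listed at 0 (Galnt6, Galnt15 and Mgat4c), and 11 have another value that the authors did not test.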

How the data were processed

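RNA was measured in 4 libraries, 2 per shRNA, grouped by title. The submitters' processing notes name TopHat2 (2.0.9), Cufflinks (2.2.1), Cuffdiff and build mm10 (GRCm38). For the Cuffdiff version, annotation, filters and strand the entry is: not given in the sources used here. The authors deposited 1 table with, per the file headers, a log2 fold change, a test statistic (a score), a p-value and a q-value per entry. Benjamini-Hochberg adjustment of the deposited p-values returned all 15315 q-values to a relative tolerance of 0.001. The smallest p, 5e-05, is shared by 472 entries, so the q of 0.00162 does not rank genes. The 2 columns of per-condition values match no labelled group and were not used. What spread the Cuffdiff p-values measure is not given, and they may cover technical spread only.

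Genes were found by symbol; 72 of 73 matched the GRCm38.p6 gene table and 28 had the same start there. Starts count from 1. By rule, named were all called genes, the ends of each family, paralogues of called genes, genes with an unadjusted p under 0.05, and up to 4 called genes of each related list, or the one with the largest statistic. Others along a pathway were named after their values were seen, and some genes the rule takes are left out of the text. The genes and lists were chosen with earlier results of these data known. GC content (median) and length (maximum) per gene came from GENCODE M21 transcripts, for 11563 of 12159 tested single-symbol genes (95.1%). The bin median (50 bins) was subtracted and the statistic rescaled by the implied error. A p was then taken from how the authors' p falls with their statistic. The steps were run on simulated data given a GC trend, with p drawn from a scaled normal distribution. That run cannot test the reading of p on the Cuffdiff values. Promoter windows were found for 53 of the 73 genes. Alternatives were other q thresholds, a minimum fold change, other sets of entries, centring and removal of GC or length trends; 2 other readings of p were added after seeing the data. Software was matplotlib 3.10.9, scikit-learn 1.9.0, pandas 2.3.3, scipy 1.17.1, numpy 2.4.6 and Python 3.11.15.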

Additional observations from a re-analysis of the deposited data

How the results depend on the processing

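No paired analysis was possible because the deposited columns carry no value per library; for the same reason no library could be left out in turn. Of the 11 glycosyltransferase calls, 7 held at q under 0.01, and 5 with p from a normal distribution of the statistic. Under the other alternatives for these calls, the count ran from 8 to 12. Over all tested entries, 1168 calls became 667 at q under 0.01, 687 with an absolute log2 fold change of at least 1, and 425 with the normal distribution. For the related lists, 11 became 7, 5 and 4 under the same 3 settings. Removal of the GC trend left 853 calls among all 11563 genes with a GC value, against 1167 with no trend removed. B4galt1, Mgat4b and St3gal4 drop out where only entries with a locus of their own are counted, since each shares its locus, as do Man1c1 and Nrp2 in the related lists. Of 78 named genes with all 3 alternatives, 69 kept their sign when centred and with either trend removed (GC or length), while Wbscr17, with no transcript GC or length, was only centred and kept its sign. The 9 that did not, all uncalled, flipped with the GC trend removed: B3gnt9 to -0.14, B4galt7 to -0.11, C1galt1 and Galnt1 to 0.20, Galnt4 to 0.15, Gxylt1 to 0.067, Mgat4a to 0.22, Neu1 to -0.0035 and St3gal2 to -0.19. Centring also flipped Galnt4 (0.026) and Gxylt1 (0.0068), and removal of the length trend Galnt4 (0.072). Cmah and Ptprz1 also lost their calls with the length trend removed. The read depth is unknown, so what it limits could not be assessed.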

Other observations

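Within 1 Mb of each other lay 6 pairs of glycosyltransferase genes, and in 3 of them both genes were tested. Mgat1 and Mgat4b, on chromosome 11 with 962 kb and 27 entries between them, were at 0.28 and 0.99 per the authors' deposited table. St6galnac5 and St6galnac3, with 2 entries between them, were at 2.12 and -0.19 per the authors' deposited table. B4galt2 and St3gal3, 48.7 kb apart on chromosome 4, were at 0.40 and 0.25 per the authors' deposited table, neither of them called by Cuffdiff. St6galnac4 and St6galnac6 share a merged entry on chromosome 2 that the choice by single symbol leaves out, at 0.18 per the authors' deposited table (Cuffdiff q = 0.749).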
